A study of Rattus norvegicus with 9 samples.

Results

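The 6-hr responses of 6 genes for immunoglobulin-type cell adhesion molecules, *Vcam1*, *Icam1*, *Alcam*, *Mcam*, *Ncam1* and *F11r*, were followed in rat aortic smooth muscle cells (RASMC). They were taken by name from the 14324 genes that have a probe set annotated with exactly 1 symbol. Where a gene has several such probe sets, the one with the highest mean over all 9 arrays would stand for it, so the probe sets were to be chosen by mean signal, but each of the 6 has 1 and no measured value decided among them. The names themselves were put together with earlier results of these arrays known. *Vcam1* in particular was singled out by the study for its difference between the treatments, and its levels are therefore given as a description, without a test. The other 5 genes were tested in the fit over all probe sets.

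The cells, bought as a primary smooth muscle culture and used at low passage, were made quiescent for 24 hr in medium with 0.2% serum and then washed with K+-free DMEM. All 3 groups share these steps. For the next 6 hr they were kept in control DMEM (Control), in DMEM with 3 mM ouabain (Ouabain) or in DMEM without K+ (K_Free, here K+ removal). Ouabain binds and blocks the Na+,K+-ATPase, and K+-free medium takes away the external ion that the same pump needs. RNA of 3 independent experiments per group was read on Rat Gene 1.0 ST arrays of Affymetrix, 1 per sample, and values are RMA signals on the log2 scale. Array medians lay between 6.76 and 6.80. Signals of different probe sets are not comparable as amounts, so levels are compared between conditions within a gene only. In bulk RNA, a smaller number of expressing cells and less RNA per cell cannot be told apart.

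The encoded proteins sit in the plasma membrane and carry extracellular immunoglobulin domains through which they bind partners on other cells. VCAM-1 binds integrins of the alpha4 family and ICAM-1 binds the leukocyte integrins LFA-1 and Mac-1. Both are known as inducible, being switched on by inflammatory cytokines through NFκB in endothelium and in vascular smooth muscle, where they hold leukocytes in the vessel wall. ALCAM binds itself and the lymphocyte receptor CD6. MCAM (CD146) is found on endothelium, pericytes and smooth muscle, NCAM1 binds itself and can carry polysialic acid, and F11R (JAM-A) belongs to cell junctions and also binds LFA-1.

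Sequence upstream of the start site is shown for the 3 genes whose changes the results turn on and whose window was at hand, *Vcam1*, *Icam1* and *F11r*. RefSeq windows of build GRCr8 were found for 4 of the 6 genes, these 3 and *Alcam*. The stretches end at the base before the first annotated transcript start of the gene: chr2:206742784-206743033 on the minus strand for *Vcam1*, chr8:27829595-27829687 on the plus strand for *Icam1* and chr13:86405979-86406228 on the plus strand for *F11r*. Capitals mark letters that match one of the motifs searched.
Vcam1: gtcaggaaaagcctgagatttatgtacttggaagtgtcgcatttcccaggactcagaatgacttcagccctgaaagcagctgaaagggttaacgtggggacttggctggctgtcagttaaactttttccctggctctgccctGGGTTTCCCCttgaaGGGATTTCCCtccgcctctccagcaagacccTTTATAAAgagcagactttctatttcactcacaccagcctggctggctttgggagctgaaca
Icam1: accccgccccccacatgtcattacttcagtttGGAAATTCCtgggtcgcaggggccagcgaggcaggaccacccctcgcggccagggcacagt
F11r: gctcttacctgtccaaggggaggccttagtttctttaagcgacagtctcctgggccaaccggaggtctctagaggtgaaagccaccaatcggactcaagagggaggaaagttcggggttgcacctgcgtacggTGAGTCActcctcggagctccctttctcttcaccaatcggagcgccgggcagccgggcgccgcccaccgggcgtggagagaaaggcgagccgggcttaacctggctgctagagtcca

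The search covered 4 motifs on both strands of the 250 bases before the start site of each RefSeq window: a decamer form of the NFκB site (GGG, any 2 bases, T, any base, CCC), the NFκB form GGAAATTCC, TGANTCA for AP-1 and TATAAA for a TATA box. The NFκB forms were written with these windows in view, so a match is a description and not a test. *Vcam1* held the decamer at -108 to -99 and again at -93 to -84, counted from the start site of the window, and TATAAA at -60 to -55 with an overlapping match on the other strand. Of 33469 promoter windows of the same length, 4.42% held the decamer and 0.55% held it 2 or more times. *Icam1* held GGAAATTCC (0.287% of windows) at -218 to -210 from the start site of its window, which is -61 to -53 from the first annotated start, where the stretch shown ends. Its TATAAA (12.9%), at -53 to -48 from the start site of the window, lay downstream of that first annotated start. *F11r* held TGAGTCA, a match to TGANTCA, at -117 to -111 (6.34%). The *Alcam* window, which lies after the first annotated start of that gene and is not shown, held none of these letters. Binding was not measured.

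Both treatments raised *Icam1* and *F11r*, *Mcam* rose past the fold limit with ouabain, and *Alcam* and *Ncam1* were not called in any comparison. A gene was called changed at a Benjamini-Hochberg adjusted p under 0.05 (limma) together with a fold above 1.2. By this rule 3 of the 5 tested genes rose with ouabain, where 32.5% of all 27342 probe sets were called, 15.8% of them higher and 16.8% lower (shares of all probe sets). After K+ removal 2 of 5 rose, against 33.9% called, 16.1% higher and 17.9% lower. Between the treatments 1 of 5 was higher and 1 lower after K+ removal, against 16.4% called, 8.45% higher and 7.97% lower. Both treatments were set against the same 3 control arrays. With so few genes these counts describe the members and do not set them apart from the array. The shares of all probe sets, here and for the lists below, include 11922 probe sets without a symbol. Among the 15097 with 1 symbol, fitted alone, 2620 were called higher and 3345 lower with ouabain. After K+ removal they were 2641 and 3551, and between the treatments 1622 and 1612. The median log2 difference over all probe sets was 0.07 with ouabain and 0.06 after K+ removal. Centring on *B2m*, the reference gene of the RT-PCR, turned the split of all calls from 4312 higher and 4583 lower to 2166 and 6223 with ouabain, and from 4391 and 4890 to 2375 and 7059 after K+ removal, but ended no call among the 5 genes.

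**Figure D1:**
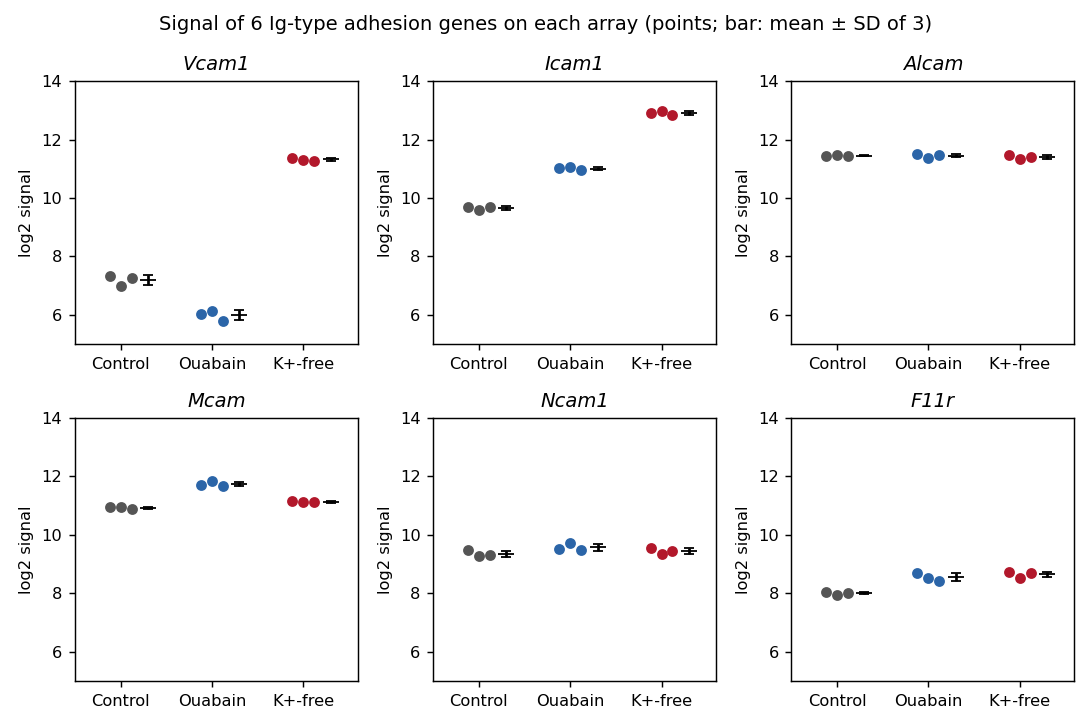
Log2 signal (vertical axis) of each of the 6 genes on every array of the 3 conditions (horizontal axis), one panel per gene on a common scale; points are arrays and the bar beside them is the mean ± SD of 3. *Vcam1* and *Icam1* reach 11.32 and 12.90 after K+ removal, while *Alcam* stays near 11.4 throughout.

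*Vcam1*, the ligand of alpha4 integrins, had signals of 7.32, 7.00 and 7.28 on the control arrays, 6.04, 6.12 and 5.79 with ouabain, and 11.37, 11.31 and 11.28 after K+ removal (log2). Ouabain arrays were the lowest and K+-free arrays the highest, and no pair of groups overlapped. The means were 7.20 (SD 0.18, n = 3), 5.99 (SD 0.17, n = 3) and 11.32 (SD 0.044, n = 3). The mean with ouabain lay below that of control cells (log2 difference -1.21), and the mean after K+ removal 17.4-fold above it (4.12). The log2 difference between the treatments, 5.33, is what the gene was picked for. Its ouabain signals lay under the medians of the arrays and near 5.79, the lower quartile of the probe set means, and they were not set against a background level. The log2 differences that use them, -1.21 and 5.33, therefore describe signal, and the size of the change in RNA behind them is uncertain.

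*Icam1*, the ligand of LFA-1 and Mac-1, gave 9.69, 9.58 and 9.68 in control cells, 11.02, 11.06 and 10.94 with ouabain and 12.91, 12.96 and 12.82 after K+ removal (log2 signal). The groups formed 3 separate steps with ouabain in the middle. Against control cells *Icam1* rose 2.56-fold with ouabain (log2 difference 1.36, SE 0.059, adjusted p = 1.68e-08) and 9.49-fold after K+ removal (3.25, SE 0.059, adjusted p = 4.55e-11). Signal after K+ removal also exceeded that with ouabain (log2 difference 1.89, 95% CI 1.76 to 2.02, adjusted p = 6.00e-09).

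*Mcam*, the CD146 antigen of vascular wall cells, stood at 10.93, 10.95 and 10.87 in control cells, 11.71, 11.83 and 11.67 with ouabain and 11.17, 11.10 and 11.12 after K+ removal. Ouabain arrays were the highest, K+-free arrays lay just above the controls, and no groups overlapped. *Mcam* rose 1.76-fold with ouabain (log2 difference 0.82, SE 0.056, adjusted p = 4.06e-07). After K+ removal the difference was 0.21 (95% CI 0.087 to 0.33, adjusted p = 0.00968), or 1.16-fold, which stays under the fold limit and would be called without it. The signal after K+ removal was lower than that with ouabain by a log2 difference of -0.61 (SE 0.056, adjusted p = 1.77e-05), the reverse of the order seen for *Icam1*.

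*F11r*, which encodes the junctional molecule JAM-A, had control signals of 8.03, 7.95 and 8.02. They were 8.69, 8.52 and 8.42 with ouabain and 8.71, 8.54 and 8.69 after K+ removal. Every treated array lay above every control array, and the arrays of the 2 treatments overlapped. The rise was 1.45-fold with ouabain (log2 difference 0.54, SE 0.076, adjusted p = 0.000134) and 1.56-fold after K+ removal (0.64, SE 0.076, adjusted p = 3.09e-05). Between the treatments the difference did not pass the test (0.10, 95% CI -0.065 to 0.27, adjusted p = 0.443).

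*Alcam*, the ligand of CD6, showed 11.43, 11.48 and 11.43 in control cells, 11.49, 11.38 and 11.46 with ouabain and 11.47, 11.35 and 11.41 after K+ removal. All 3 groups overlapped. Its difference from control was -0.002 with ouabain (95% CI -0.12 to 0.12, adjusted p = 0.980) and -0.04 after K+ removal (95% CI -0.16 to 0.080, adjusted p = 0.583), so that both intervals lie inside the fold limit of 0.26 on the log2 scale. *Ncam1*, the homophilic neural adhesion molecule, gave 9.46, 9.28 and 9.31, then 9.52, 9.70 and 9.47, then 9.54, 9.34 and 9.44 in the same order. The lowest ouabain array and the highest control array differed by less than 0.01, and K+-free arrays overlapped both other groups. With ouabain the log2 difference of *Ncam1* was 0.22 (95% CI 0.040 to 0.39), with an adjusted p of 0.0470 but a fold of 1.16, under the limit. It passed the limit without 1 control array (replicate 1, 0.27) or without 1 ouabain array (replicate 3, 0.26). After K+ removal it was 0.092 (95% CI -0.084 to 0.27, adjusted p = 0.370).

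**Figure D2:**
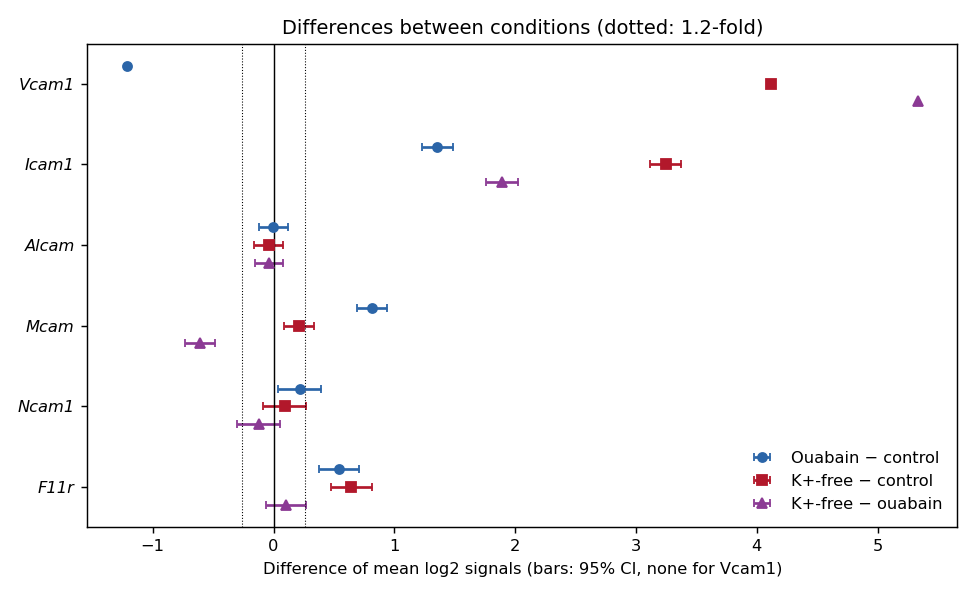
Difference of mean log2 signals (horizontal axis) for the 6 genes (vertical axis) in the 3 comparisons; bars are 95% confidence intervals of the limma fit, left out for *Vcam1*, and dotted lines mark 1.2-fold. *Vcam1* lies on both sides of 0, *Icam1* to the right in all 3 comparisons, and *Mcam* is lower after K+ removal than after ouabain.

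The genes whose signals moved most like each member were taken as the 3 with the smallest Euclidean distance between log2 signals centred on their own mean over the 9 arrays. Pearson's r is given with each as a description; the 9 arrays form 3 groups, and r mostly reflects the 3 group means. Nearest to *Vcam1* were the cytokine gene *Csf2* (distance 1.59, r = 0.973) and the chemokine genes *Ccl20* (2.02, r = 0.961) and *Cxcl6* (2.08, r = 0.960). Their differences from control were 4.86, 4.29 and 5.40 after K+ removal but 0.039, 0.24 and 0.36 with ouabain, where *Vcam1* had -1.21. The mean of *Vcam1* thus lay below control with ouabain and the means of its 3 nearest genes did not. The control signals of those 3 genes were not set against a background level, below which a fall would not show. Nearest to *Icam1* were *Egln3*, an oxygen-dependent prolyl hydroxylase (distance 0.533, r = 0.998), the NFκB inhibitor *Nfkbia* (0.591, r = 0.999) and the vasodilator peptide gene *Adm* (0.597, r = 0.991).

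*Mcam* lay closest to *Atp1b1*, which encodes a beta subunit of the Na+,K+-ATPase itself (distance 0.166, r = 0.988), to the Wnt receptor *Fzd4* (0.169, r = 0.989) and to *Neto2* (0.178, r = 0.995). *Atp1b1* differed from control by 0.85 with ouabain and 0.24 after K+ removal, beside 0.82 and 0.21 for *Mcam*. *F11r* lay closest to *Nfatc2*, a calcium-dependent transcription factor (distance 0.180, r = 0.979), *Aebp2* (0.203, r = 0.978) and the kinase *Stk4* (0.204, r = 0.973). For *Alcam* (*Cyrib*, *Rpl17* and *Pfn3*, distance 0.0846 to 0.0902) the profiles were nearly flat. The genes nearest to *Ncam1*, *Triap1*, *Snx15* and *Farp1* (distance 0.145 to 0.154), differed from control by 0.17, 0.21 and 0.19 with ouabain, beside 0.22 for *Ncam1*.

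**Figure D3:**
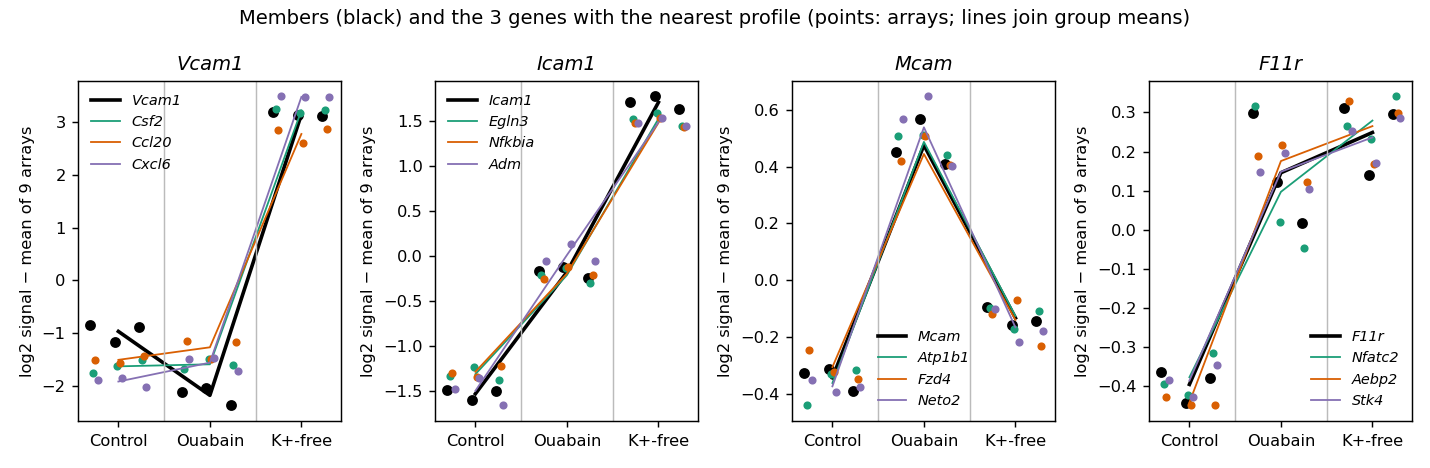
Log2 signal minus its mean over the 9 arrays (vertical axis, scaled per panel) by condition (horizontal axis) for *Vcam1*, *Icam1*, *Mcam* and *F11r* in black and their 3 nearest genes in colour; points are arrays and lines join group means. *Vcam1* lies below its neighbours with ouabain, while *Mcam* and *Atp1b1* both peak there.

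Beside the 6 members, 38 of 46 listed adhesion genes of the immunoglobulin superfamily had a probe set of their own. With ouabain 9 rose and 3 fell (23.7% and 7.89% of the 38, against 15.8% and 16.8% of all probe sets). Their median log2 difference was 0.13 against 0.07 over all probe sets. After K+ removal 12 rose and 2 fell (31.6% and 5.26%, against 16.1% and 17.9%), with a median of 0.14 against 0.06. Centred on *B2m*, 4 were higher and 4 lower with ouabain, and 8 and 4 after K+ removal. *Pvr*, a receptor of the nectin family, moved furthest upward, by 1.84 with ouabain (adjusted p = 3.62e-09) and 2.17 after K+ removal (adjusted p = 7.67e-10). Its relative *Nectin2* rose by 0.37 (not called on *B2m*, 0.22) and 1.03, and *Cxadr*, another junctional molecule, by 0.68 and 0.89. *Cd200*, a ligand that restrains myeloid cells, fell by 1.26 with ouabain (adjusted p = 7.29e-09), while its difference after K+ removal was -0.15 and not called. Like *Vcam1*, *Cd200* was lower with ouabain than after K+ removal (difference 1.11, adjusted p = 6.54e-08), and *L1cam*, like *Mcam*, was higher (-0.39, adjusted p = 0.00292), a call that the methods' t-test did not make. The signals of *L1cam* lay under the array medians in every group. So did those of *Icam2* and *Cadm1*, which are also among the 9 rises with ouabain. In all, 8 of the 38 were higher and 1 lower after K+ removal than after ouabain (21.1% and 2.63%, against 8.45% and 7.97% of all probe sets). Without Ouabain replicate 2 or without K_Free replicate 1, 2 were lower. *Madcam1*, which like *Vcam1* binds alpha4 integrins, rose after K+ removal (0.61, adjusted p = 1.01e-05) but not past the test with ouabain (0.12, adjusted p = 0.133).

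**Figure D4:**
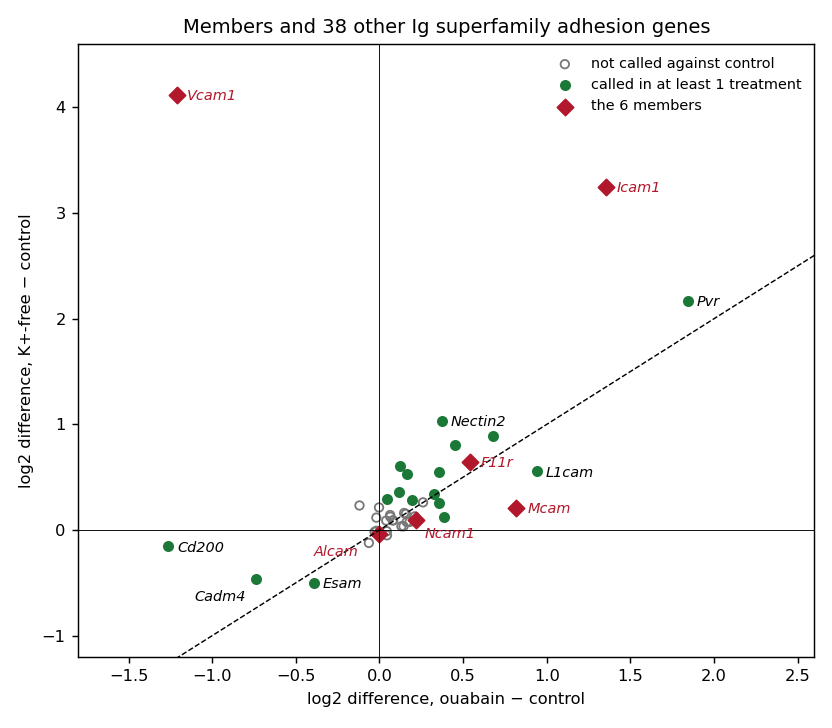
Log2 difference from control with ouabain (horizontal axis) and after K+ removal (vertical axis) for the 6 members (diamonds) and 38 other adhesion genes of the superfamily (circles, filled where called against control in at least 1 treatment); the dashed line marks equal change. Both axes use the same 3 control arrays. *Vcam1* and *Icam1* lie far above the line and *Mcam* below it, while *Pvr* lies close to it.

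Of 19 counter-receptors and ligands of the members measured, 4 rose and 3 fell with ouabain (21.1% and 15.8%, against 15.8% and 16.8% of all probe sets), and 1 rose and 5 fell after K+ removal (5.26% and 26.3%, against 16.1% and 17.9%). The 4 rises became 2 without Control replicate 3, Ouabain replicate 1 or Ouabain replicate 3, and 1 on *B2m* or after repeated quantile normalization, while the 1 rise after K+ removal became 2 without Control replicate 2 or K_Free replicate 1. *Itga4*, the alpha4 chain that binds VCAM-1, fell by 0.88 with ouabain (adjusted p = 9.08e-07) and fell by 0.61 after K+ removal (adjusted p = 1.64e-05). Its partner chain *Itgb1* was not called (0.006 and 0.15). The LFA-1 chains *Itgal* and *Itgb2*, which belong to leukocytes, had mean signals between 5.76 and 6.11 in every condition. With ouabain *Itgal* (0.27, adjusted p = 0.00876) and *Cd6*, the receptor of ALCAM (0.27, adjusted p = 0.00444), passed the fold limit by a small margin, and both calls were lost in each of the settings that cut the 4 rises. For NCAM1, the growth factor gene *Gdnf* rose by 0.96 and 0.76, whereas its receptor *Gfra1* fell by 0.40 in each treatment and *Fgfr1* fell by 0.47 with ouabain and fell by 0.76 after K+ removal. *Lgals3* went in opposite directions, rising by 0.30 with ouabain and falling by 0.58 after K+ removal (adjusted p = 1.32e-05). Between the treatments it differed by -0.87 (adjusted p = 2.65e-06). Its rise was not called on *B2m* (0.14), after repeated quantile normalization (0.22) or without Control replicate 2 (0.26).

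Among proteases that release membrane proteins from the cell surface, *Adam17*, which cuts VCAM-1 and ICAM-1, rose by 0.90 after K+ removal (adjusted p = 7.83e-08). With ouabain it rose by 0.27 (adjusted p = 0.00127), a call lost without Control replicate 3 (0.26), Ouabain replicate 1 (0.25) or Ouabain replicate 3 (0.26), on *B2m* (0.12) and after repeated quantile normalization (0.20). *Bace1*, a beta-secretase, fell by 0.78 with ouabain (adjusted p = 3.73e-05) and fell by 0.65 after K+ removal (adjusted p = 0.000148). *Rhbdf1*, a relative of *Rhbdf2*, rose by 0.65 and 0.50. *Rhbdf2*, needed for ADAM17 to mature, rose by 1.96 after K+ removal (adjusted p = 1.61e-09) but differed by only 0.22 with ouabain, which is under the fold limit, and stood 1.74 higher after K+ removal than after ouabain (adjusted p = 1.76e-08). Of 8 genes of this list 2 rose and 1 fell with ouabain (25% and 12.5%, against 15.8% and 16.8% of all probe sets). The 2 rises became 1 without Control replicate 3, Ouabain replicate 1 or Ouabain replicate 3 and on *B2m*. After K+ removal 4 of the 8 rose and 1 fell (50% and 12.5%, against 16.1% and 17.9%). These 4 were *Adam17*, *Rhbdf1*, *Rhbdf2* and *Timp3*, which is in the list as an inhibitor of such proteases. *Timp3* rose by 0.28 and was not called on *B2m* (0.12) or after repeated quantile normalization (0.24).

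Of 24 cytoplasmic partners 8 rose and 7 fell with ouabain (33.3% and 29.2%, against 15.8% and 16.8% of all probe sets), and 6 rose and 3 fell after K+ removal (25% and 12.5%, against 16.1% and 17.9%). Centred on *B2m*, 4 rose and 11 fell with ouabain, and the falls after K+ removal went from 3 to 11, so that the balance of directions rests on the scaling. Among them *Afdn*, the adaptor that binds JAM-A and nectins, rose by 0.32 (not called on *B2m*, 0.16) and 1.16, and cortactin *Cttn*, an actin adaptor recruited below clustered ICAM-1, fell by 1.19 with ouabain and fell by 1.27 after K+ removal. *Ezr* and *Msn*, which link ICAM-1 and VCAM-1 to actin, were not called in either treatment. Their relative *Rdx*, in the same list, rose by 0.35 with ouabain (not called on *B2m*, 0.19). Of the actinin genes listed, *Actn1* fell under both treatments. *Actn4* fell by 0.29 with ouabain, a call lost without Ouabain replicate 3 (-0.24). Of 7 genes listed for sialic acid and other sugar transfer, with the proteoglycan gene *Ncan* among them, 1 rose and 2 fell under each treatment (14.3% and 28.6%). *Fut8* fell by 1.27 with ouabain and by 1.39 after K+ removal, and *St6gal1* fell by 1.11 and 1.19. The 1 rise after K+ removal was *St8sia2* (0.64, adjusted p = 1.52e-05), which was also higher than with ouabain (0.46, adjusted p = 0.000569). Of 13 cadherin, catenin and selectin genes 4 rose and 3 fell with ouabain (30.8% and 23.1%), and 1 rose and 2 fell after K+ removal (7.69% and 15.4%). The 1 sugar transfer rise with ouabain, *St3gal4*, was lost without Control replicate 3 or Ouabain replicate 2, and the 1 cadherin rise after K+ removal became 2 without Control replicate 1, Control replicate 3 or K_Free replicate 3. On *B2m* the cadherin, catenin and selectin list had 1 rise with ouabain, and 0 rises and 5 falls after K+ removal.

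Genes known to govern transcription of *Vcam1* and *Icam1* rose more often than they fell under both treatments. The list mixes activators with inhibitors, such as *Nfkbia*, *Nfkbib* and *Nfkbie*, so its counts give no direction of effect on either gene. Of 28 measured, 18 rose and 4 fell with ouabain (64.3% and 14.3%, against 15.8% and 16.8% of all probe sets), with a median log2 difference of 0.51. After K+ removal 23 rose and 1 fell (82.1% and 3.57%, against 16.1% and 17.9%), with a median of 0.85. Compared with ouabain, 18 were higher and 1 lower after K+ removal (64.3% and 3.57%, against 8.45% and 7.97%). The median there was 0.38, against -0.008 over all probe sets. *Irf1* rose by 0.73 with ouabain and 3.26 after K+ removal. The NFκB subunit genes *Rela* and *Nfkb1* rose by 0.53 and 1.67 after K+ removal, and were at -0.16 and 0.13 with ouabain, neither called (adjusted p = 0.0547 and 0.0821). *Nfkbia*, an inhibitor that NFκB itself induces, rose by 1.09 and 2.77, and its relative *Nfkbie* rose by 2.42 after K+ removal. *Nfkb2* fell with ouabain (-0.39, adjusted p = 0.000842; -0.20 and not called after repeated quantile normalization) and rose after K+ removal (1.58, adjusted p = 1.54e-08), and *Ikbkg*, the scaffold of the kinase that frees NFκB, fell by 1.61 with ouabain and fell by 0.95 after K+ removal. Whether any of these changes acts on *Vcam1* or *Icam1* was not tested.

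**Figure D5:**
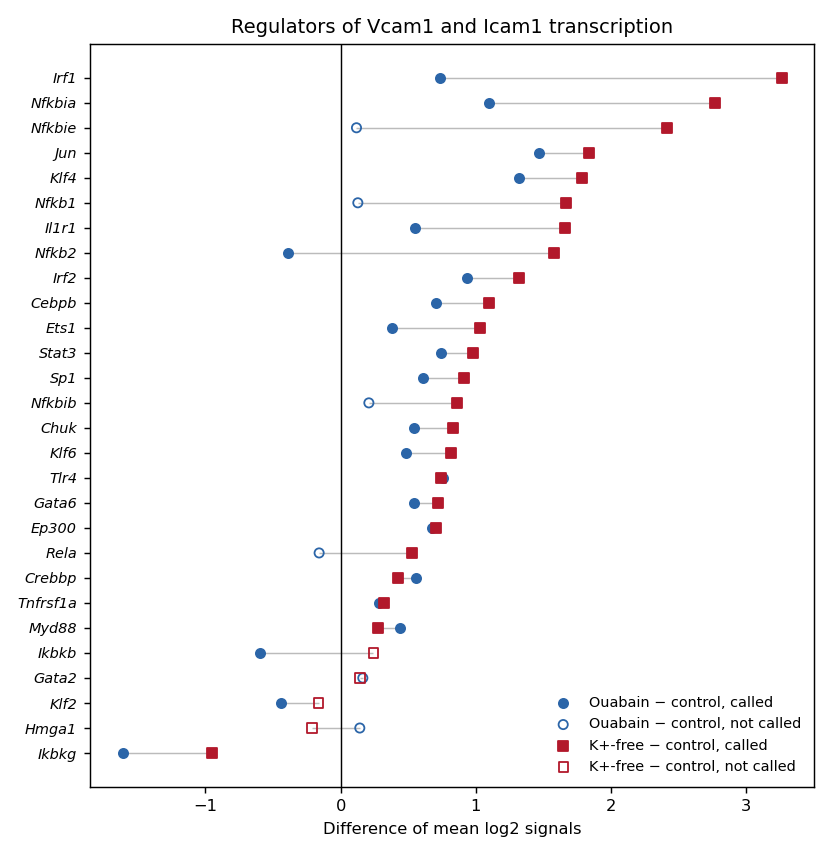
Difference of mean log2 signals from control (horizontal axis) for 28 regulators of *Vcam1* and *Icam1* transcription (vertical axis) with ouabain (circles) and after K+ removal (squares), filled where called. The widest gaps between the treatments are those of *Irf1* and *Nfkbie*, 2.53 and 2.30.

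The label of the cells was set against marker genes. Of 10 smooth muscle markers measured, 9 lay above the array medians in every group, with *Tagln* at 13.6 in control cells. Their summed log2 signal was 14.9 to 15.0 in control cells, 14.6 to 14.7 with ouabain and 14.8 after K+ removal. By the calling rule 7 of the 10 were lower with ouabain and 3 after K+ removal (70% and 30%, against 16.8% and 17.9% of all probe sets). Of 9 endothelial markers, 7 lay below the medians in control cells and 8 in each treatment, and their summed signal was 9.27 to 9.34 in control cells, 9.26 to 9.34 with ouabain and 9.34 to 9.37 after K+ removal. Leukocyte markers were below the medians for 10 of 11 genes in control cells and 9 of 11 in each treatment, *Ptprc*, the defining leukocyte antigen, among them. Their summed signal was 9.52 to 9.61 in control cells, 10.3 to 10.4 with ouabain and 9.86 to 10.0 after K+ removal, with *Cd68* and *Cd14* higher by 1.29 and 1.27 with ouabain. By the calling rule 3 of the 11 were higher and 0 lower in each treatment. That is 27.3% higher, against 15.8% of all probe sets with ouabain and 16.1% after K+ removal. Compared with ouabain, 2 were lower after K+ removal (18.2%, against 7.97%). Of 10 fibroblast markers, 5 lay below the medians in control cells, 4 with ouabain and 5 after K+ removal, and of 8 Schwann and neuronal markers 6 did in each group. Summed fibroblast markers were 14.7 in control cells, 14.7 to 14.8 with ouabain and 14.8 to 14.9 after K+ removal, and Schwann and neuronal markers 9.50 to 9.62, 9.56 to 9.73 and 9.62 to 9.64. The part of any of these lists in the changes of the members was not tested.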

How the data were processed

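The deposited values are log2 signals that the authors made with RMA in Partek, as the labels name without versions; a later passage of the methods gives MAS5 scaling and GeneSpring instead. Arrays were grouped by their titles, 3 per group. The members and gene lists were chosen with earlier results of these data known. Of 27342 probe sets, 15097 carry 1 symbol in the platform annotation, 323 several and 11922 none. For 15067 of those with 1 symbol, the gene identifier is listed in RefSeq, whose current symbols were used. No further scaling was applied.

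limma 3.58.1 in R 4.3.3 (with the data.table package, 1.17.8) fitted 1 mean per group over the 9 arrays with empirical Bayes moderation, and p-values of each comparison were adjusted together by Benjamini-Hochberg. The fit was tested on simulated data. Precision is limited by 3 arrays a group; the methods state another n than the labels, which were followed. Named genes were the 6 members, their 3 nearest genes, *Rela*, *Nfkb1*, *Nfkbia* and *Irf1*, and genes that a rule gave for each list and comparison. The rule took up to 4 called genes with the largest difference and arrays apart. Not all of these are described. The rule also gave *Agrn*, *Cadm4*, *Cntn2*, *Gab1*, *Rapgef2*, *Pard6b*, *Src*, *Sptan1*, *Jun*, *Klf4*, *Jup*, *Cdh2*, *Cdh5*, *Cdh6* and *Pkp2*, which were left out of the description. *Itgb1*, *Itgal*, *Itgb2*, *Cd6*, *Ezr*, *Msn*, *Rhbdf2* in ouabain, and the marker genes were named as known partners or markers after their values were seen. *Timp3*, *Rdx*, *Actn1*, *Actn4*, *Icam2* and *Cadm1* were also named after their values were seen. Controls and treatments of an experiment ran in parallel per the methods, but the labels do not tie a number to an experiment, and replicate numbers were not used as pairs. Same-numbered arrays deviated together with r from -0.046 to 0.31, over 0.1 in 4 of 9 pairs, which does not settle whether they are pairs. Alternatives were repeated quantile normalization, centring on medians or *B2m*, leaving out dim or unnamed probe sets, a replicate block, 6 arrays alone, trend and robust moderation, analysis of variance, the methods' t-test, other fold limits, probe set means and leaving out each array. Settings that end the call of a named list gene were tabulated after seeing the data. Plots used Python 3.11.15 and matplotlib 3.10.9.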

Additional observations from a re-analysis of the deposited data

How the results depend on the processing

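The counts of members called stayed within 1.5 times of 3, 2 and 2 (ouabain, K+ removal, and between them) under every alternative listed, and *Icam1* and *Alcam* stayed on their side of the threshold in all 69 values each. Exceptions among single genes were *F11r* with ouabain, no longer called at a fold above 1.5, *Mcam* after K+ removal, called without a fold limit, and *Ncam1* with ouabain, called without a fold limit and after repeated quantile normalization (0.33) besides the omissions given above. The *Vcam1* differences from control moved furthest when centred on *B2m*, to -1.37 with ouabain and 3.96 after K+ removal, by less than the SD of the control arrays (0.18) though by more than the residual SD of the fit. Leaving out 1 array at a time gave -1.32 to -1.12 with ouabain, 4.02 to 4.18 after K+ removal and 5.24 to 5.40 between them for *Vcam1*, and 3 to 4 members called with ouabain and 2 in each of the other comparisons.

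No call among the members changed with the replicate number as a block, and with the block the members called were 3, 2 and 2. Of 9 arrays, 4 correlated best with their own number in both other groups, which does not settle whether the numbers mark experiments. The numbers were not taken as pairs because the labels do not tie them to an experiment. Counts of the other lists rest more on the settings: of 42 counts, 27 stayed within 1.5 times when centred on *B2m*, 28 without a fold limit, 35 with the methods' t-test and 14 at a fold above 1.5. For the superfamily list the rises with ouabain went from 9 to 4 on *B2m*, to 15 without a fold limit and to 3 at 1.5-fold, and those after K+ removal from 12 to 19 and 5 under these fold limits; genes higher after K+ removal than with ouabain went from 8 to 4 by the methods' t-test and to 2 at 1.5-fold. For the regulators, 1.5-fold left 10 of 18 rises with ouabain and 11 of 18 between the treatments. The list counts and the unadjusted t-test were added after seeing the data. Signals below the array median, as for *Vcam1* with ouabain, were not set against a background level.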
